A study of Mus musculus with 27 samples.

Results

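Transforming growth factor beta (TGF-beta) and activin are secreted dimers of one cytokine superfamily. Both bind a type II receptor that recruits and phosphorylates a type I receptor, which then activates SMAD2 and SMAD3 in the cell. The TGF-beta ligands leave the cell in a latent complex and act only once they are released from it, while follistatin and gremlin trap activins and bone morphogenetic proteins outside the cell. In glands and other organs the pathway is best known for restraining epithelial growth, for driving matrix deposition by fibroblasts and for epithelial to mesenchymal transition. Described here are 10 listed genes of this pathway among the 43346 genes of the expression table: the ligands Tgfb1, Tgfb2 and Tgfb3, the receptors Tgfbr1 and Tgfbr2, the TGF-beta-induced matrix protein gene Tgfbi, the activin subunit genes Inhba and Inhbb, and the antagonists Fst (follistatin) and Grem1 (gremlin). They were chosen by name, and each was found once in the table by its Ensembl identifier.

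The data were RNA sequencing of whole lacrimal glands, the glands that make the watery part of tears, from female wild-type BALB/c mice aged 8 to 10 weeks by the sample labels. The 27 mice formed 9 groups of 3. Of these groups 7 had received 1 µg of the inflammatory cytokine IL-1α by injection into the gland and were sampled daily on days 1 through 5, on day 7 and on day 14. Another was sampled 14 days after the vehicle saline was injected, and the last was left uninjured (day 0). No group carried a transgene or deletion, each library came from 1 animal, and saline glands were taken at day 14 only, so that the effect of the injection itself on days 1 to 7 cannot be told apart from that of IL-1α. Values of 26 libraries were read, since day 7 replicate 2 was not analysed here. The study left day 2 replicate 3, day 4 replicate 1 and day 7 replicate 1 out of its tests after inspecting the clustering of the libraries, and the tests below follow it, which leaves 23 libraries with 2 at day 2, 2 at day 4 and 1 at day 7.

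Values are normalized expression, the estimated count of a gene divided by 1 size factor per library. The libraries held between 9.48 and 13.1 M estimated counts. A gene was tested when it reached a value of 10 in at least 2 of the 23 libraries, which 13762 genes did, and was called when its change reached 2-fold with an adjusted p no higher than 0.05 by limma. The 9 genes of the acinar marker list that the table holds, which mark the secretory cells, summed to between 3.28 and 4.51 M at day 0. In every tested IL-1α library of days 1 through 5 that sum was lower, at 1.28 to 2.15 M. The top 10 genes took 53.8 to 54.3% of the signal at day 1, against 70.8 to 75.3% at day 0. Genes of the neighbouring salivary glands also varied within groups, and their sum ran between 66.9 and 2.12 M within day 3 alone. Skeletal muscle genes summed to 1811 and 1988 in the tested libraries of day 2, against 23.4 to 545 at day 0. They summed to 27.3 to 583 at day 5 and to 63.1 to 1836 at day 14 after IL-1α. The part of such material in the values of these days was not tested.

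Of the 10 genes, 8 passed the filter on low values. Inhba and Grem1 did not, and stay a description. Some of the 8 rested on few reads at day 0: Tgfb1 had 13 estimated reads in each of the 3 day 0 libraries, and Inhbb had between 10 and 14. All identifiers and positions are those of GRCm38. Tgfb1 (ENSMUSG00000002603.11) lies at chr7:25687002-25705077, Tgfb2 (ENSMUSG00000039239.10) at chr1:186622792-186705989 and Tgfb3 (ENSMUSG00000021253.6) at chr12:86056745-86079041. Tgfbr1 (ENSMUSG00000007613.11) lies at chr4:47353222-47414931 and Tgfbr2 (ENSMUSG00000032440.8) at chr9:116084293-116175360. Tgfbi (ENSMUSG00000035493.9), Inhba (ENSMUSG00000041324.9) and Fst (ENSMUSG00000021765.7) are all on chromosome 13, at chr13:56609523-56639562, chr13:16011851-16031621 and chr13:114452290-114458951. Inhbb (ENSMUSG00000037035.5) lies at chr1:119415465-119422248 and Grem1 (ENSMUSG00000074934.3) at chr2:113746164-113758646. All are protein-coding, and the values are estimated over all transcripts of a gene.

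The promoters of 4 genes are shown because the results turn on them: Tgfb1, Tgfbi and Inhbb, which rose together on days 1 and 2, and Tgfbr2, which was called on days 4 and 5. Each run gives 300 bases, 250 before and 50 after the gene's start in RefSeq, 5′ to 3′ on the gene's own strand, on GRCm38.p6. For Tgfbi and Tgfbr2 that start is not the same as the one in the positions above. Capitals mark the letters CAGAC or their complement GTCTG, the core of a SMAD-binding element.
Tgfb1, chr7:25686752-25687051, plus strand: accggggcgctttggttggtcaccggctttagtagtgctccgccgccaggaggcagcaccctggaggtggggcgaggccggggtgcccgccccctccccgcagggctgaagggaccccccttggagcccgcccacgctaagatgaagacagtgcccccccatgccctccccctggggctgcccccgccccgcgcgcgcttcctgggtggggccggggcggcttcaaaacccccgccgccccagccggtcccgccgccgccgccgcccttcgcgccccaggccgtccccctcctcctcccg
Tgfbi, chr13:56609336-56609635, plus strand: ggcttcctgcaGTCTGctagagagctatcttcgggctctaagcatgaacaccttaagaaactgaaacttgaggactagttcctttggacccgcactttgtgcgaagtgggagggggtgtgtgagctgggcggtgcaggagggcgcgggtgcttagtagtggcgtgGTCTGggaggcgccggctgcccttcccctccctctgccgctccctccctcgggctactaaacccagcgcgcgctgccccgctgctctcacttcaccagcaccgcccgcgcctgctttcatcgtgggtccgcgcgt
Inhbb, chr1:119422199-119422498, minus strand: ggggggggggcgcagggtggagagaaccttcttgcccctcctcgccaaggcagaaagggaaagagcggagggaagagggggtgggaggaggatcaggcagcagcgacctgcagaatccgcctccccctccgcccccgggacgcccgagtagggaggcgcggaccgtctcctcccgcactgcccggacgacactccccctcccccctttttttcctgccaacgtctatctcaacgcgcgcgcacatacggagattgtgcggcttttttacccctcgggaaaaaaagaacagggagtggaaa
Tgfbr2, chr9:116175314-116175613, minus strand: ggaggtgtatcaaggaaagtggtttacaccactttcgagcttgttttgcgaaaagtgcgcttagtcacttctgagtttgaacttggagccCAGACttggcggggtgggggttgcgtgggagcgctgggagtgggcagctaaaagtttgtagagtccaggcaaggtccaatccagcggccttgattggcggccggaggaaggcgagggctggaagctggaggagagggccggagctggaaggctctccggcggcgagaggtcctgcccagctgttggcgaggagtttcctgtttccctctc
CAGAC was found 2 times in the Tgfbi window, 1 time in that of Tgfbr2 and in neither of the other 2, and 49.7% of 27025 promoters of this length held it at least once on either strand. The GC box GGGCGG, read on both strands, was found 6 times in the Tgfb1 window, 2 times in that of Tgfbi and 1 time in that of Inhbb, and was absent from that of Tgfbr2, against 35.9% of all promoters with at least 1. No window held the AP-1 letters TGANTCA, which 7.93% of promoters held. The 6 motifs of Tgfb1 stand in a window of 77% G and C, against a median of 52.7% over all promoters, and none of the motifs searched overlapped CAGAC. The promoter table matched 8 of the 10 genes, and Tgfb3 and Fst had no entry.

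**Figure D1:**
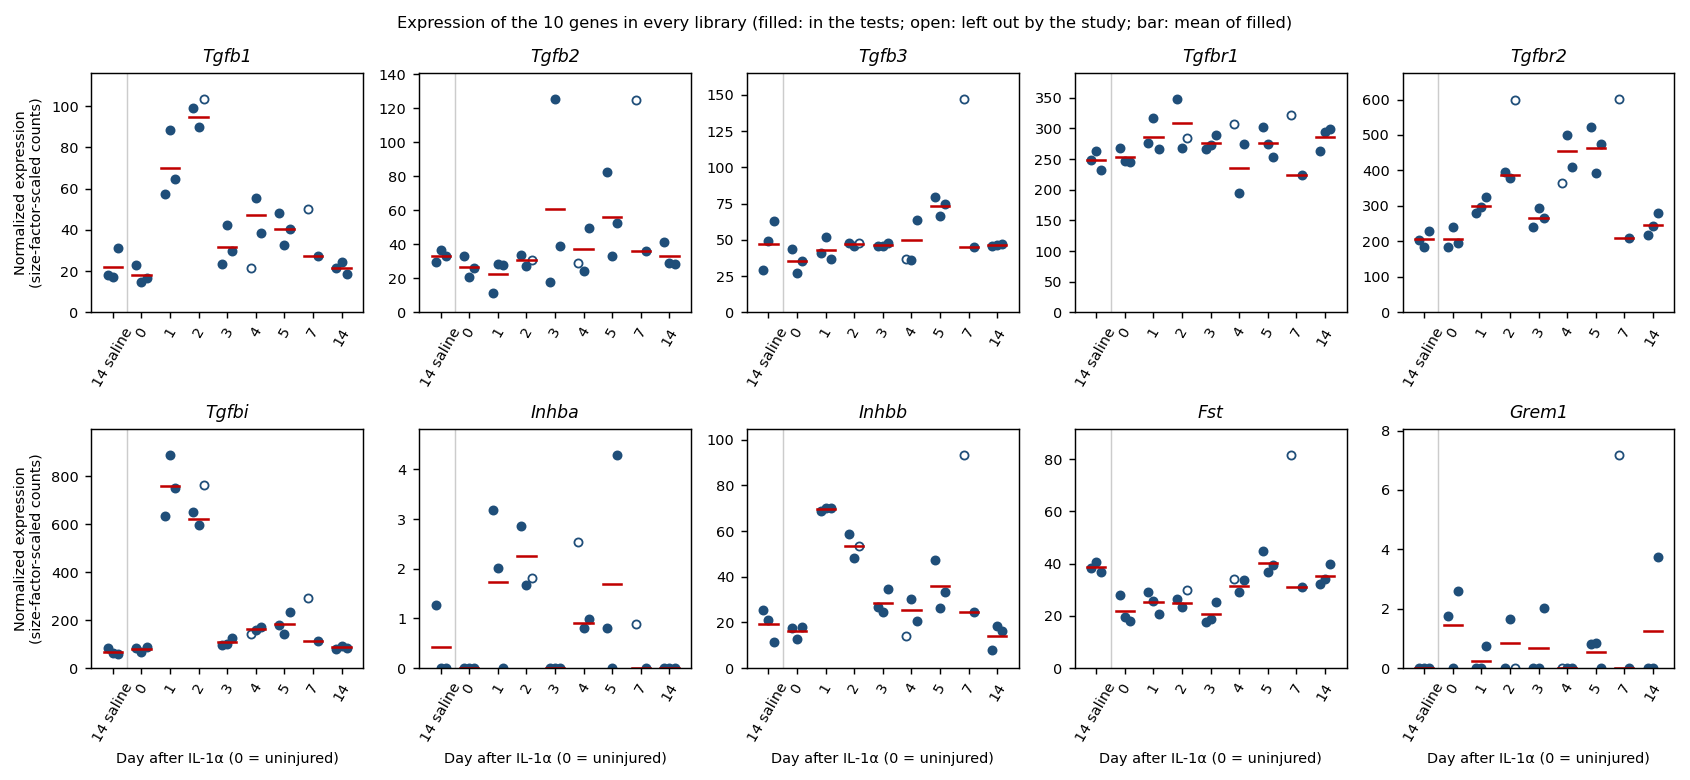
Normalized expression of the 10 genes in each library, by day after IL-1α with the saline group at the left; filled points entered the tests, open points are the libraries the study left out, and bars are means of the filled points. The 3 day 1 libraries of Tgfbi sit between 635 and 890, those of day 0 between 66.3 and 88.4, while Tgfbr1 stays between 195 and 348 in all tested libraries.

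Tgfb1 encodes the TGF-beta ligand that leukocytes, platelets and stromal cells make. Its normalized expression was 57.3, 88.3 and 64.8 at day 1 and 99.2 and 90.1 at day 2, against 22.8, 14.9 and 16.9 at day 0. Every library of both days lay above every uninjured gland. The gene rose 3.70-fold at day 1 (log2 1.89 ± 0.26 SE, adjusted p = 5.88e-06, n = 3 against 3) and 5.05-fold at day 2 (log2 2.34 ± 0.29, adjusted p = 5.39e-06, n = 2 against 3). At day 3 it stood at 23.2, 42.2 and 29.6 and was lower than at day 2, by a log2 change of -1.59 ± 0.29 (adjusted p = 0.000895). Against day 0 the day 3 value was not called (log2 0.75, 95% interval 0.20 to 1.29, adjusted p = 0.0766), although all 3 libraries lay above the uninjured ones.

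Day 4, with 55.4 and 38.7, was called again (log2 1.32 ± 0.29 against day 0, adjusted p = 0.00413). Day 5, with 48.2, 32.5 and 40.4, was called too (log2 1.11 ± 0.26, adjusted p = 0.00373). The call at day 4 rested on day 4 replicate 2, without which the log2 change was 1.07 with an adjusted p of 0.0930. Day 4 replicate 1, which the study left out, stood at 21.6, within the day 0 range, and with all 26 libraries the day 4 change was 0.97. The call at day 5 fell just under 2-fold without day 0 replicate 2 (log2 0.99) or without day 5 replicate 1 (log2 0.98), and was also lost with the saline glands in place of day 0 (log2 0.88, adjusted p = 0.0219). At day 14 the values were 21.4, 24.4 and 18.7 after IL-1α and 17.9, 17.2 and 31.1 after saline, and both groups overlapped day 0 (log2 0.24 for each). In the order of group means day 2 stood first and day 1 second, with no overlap between them or between day 1 and day 4, while each pair of neighbours from day 4 down to day 0 overlapped. Day 2 against day 1 was not called (log2 0.45, 95% interval -0.16 to 1.06, adjusted p = 0.409).

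Tgfb2, a ligand of epithelial and mesenchymal cells, was not called on any day against day 0. Its values were 82.7, 33.4 and 52.4 at day 5, against 33.3, 20.6 and 26 at day 0. The lowest day 5 library was level with the highest uninjured one (33.4 and 33.3), and the spread within day 5 was wide (log2 0.98, 95% interval -0.04 to 2.00, adjusted p = 0.138). The highest tested value was 126 in day 3 replicate 2, where the other day 3 libraries had 17.7 and 38.7, and that library was also the one with the highest value of the salivary gene Bpifa2, at 1.23 M. Whether this material accounts for its Tgfb2 level was not tested. The lowest was 11.5, in day 1 replicate 1. Day 5 passed the threshold against day 1 (log2 1.29 ± 0.49, adjusted p = 0.0477), where day 1 had 11.5, 28.3 and 28.0, but the call was lost under most alternatives and the change was 0.88 (adjusted p = 0.240) without day 1 replicate 1.

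Tgfb3, the ligand needed for closure of the palate in mice, was called at day 5 alone. Its values were 79.5, 66.8 and 74.8 at day 5, against 43.9, 27.4 and 35.1 at day 0. All day 5 libraries lay above all tested libraries of every other group. Day 5 was not called by limma against day 1 (log2 0.77, adjusted p = 0.0177, under 2-fold) or against day 2 (log2 0.64, adjusted p = 0.167). The gene rose 2.08-fold at day 5 (log2 1.06 ± 0.24, adjusted p = 0.00286), and on the other days its log2 change against day 0 lay between 0.29 and 0.44 with no call. Without day 0 replicate 2 the day 5 change was 0.89 and without day 5 replicate 1 it was 0.9992, both under the 2-fold limit with adjusted p of 0.0165 and 0.0149. The change at day 5 was 0.69 on the log2 scale (adjusted p = 0.0449) when the saline glands, at 29.4, 49.1 and 63.3, stood in for day 0.

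To compare the ligands with each other their values were divided by gene length, as the union of all annotated exons in kb. Tgfb1 made up 45.4% ± 0.9 of the 3 ligands at day 1 (SD, n = 3) and 49.5% ± 0.2 at day 2 (n = 2), against 19.3% ± 0.9 at day 0 (n = 3). Tgfb3 made up 42.1% ± 4.8 at day 1 and 36.6% ± 1.3 at day 2, against 56.1% ± 0.8 at day 0. Tgfb3 was thus the most abundant ligand per kb in every uninjured gland, and Tgfb1 had the largest share in both tested day 2 libraries. By day 5 the makeup was 20.3% ± 0.2 Tgfb1, 23.8% ± 6.1 Tgfb2 and 55.9% ± 6.1 Tgfb3, close to those of day 0 for each of them. The sum of the 3 per kb was 39.5 ± 7.7 at day 5 and 37.9 ± 2.4 at day 2, against 18.7 ± 4.3 at day 0. By this length a like total was thus reached at day 2 and day 5 with different ligands in front. The shares depend on the length used: with the longest transcript, which for Tgfb1 is 2573 bases in place of 5042, Tgfb1 made up 61.2% at day 1 and 65.0% at day 2, against 31.1% at day 0. The total depends on it too: with the longest transcript the sum was 59.2 and 53.9 at day 2 and 58.4, 38.9 and 48.0 at day 5. These shares were not tested, and they are shares of RNA.

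**Figure D2:**
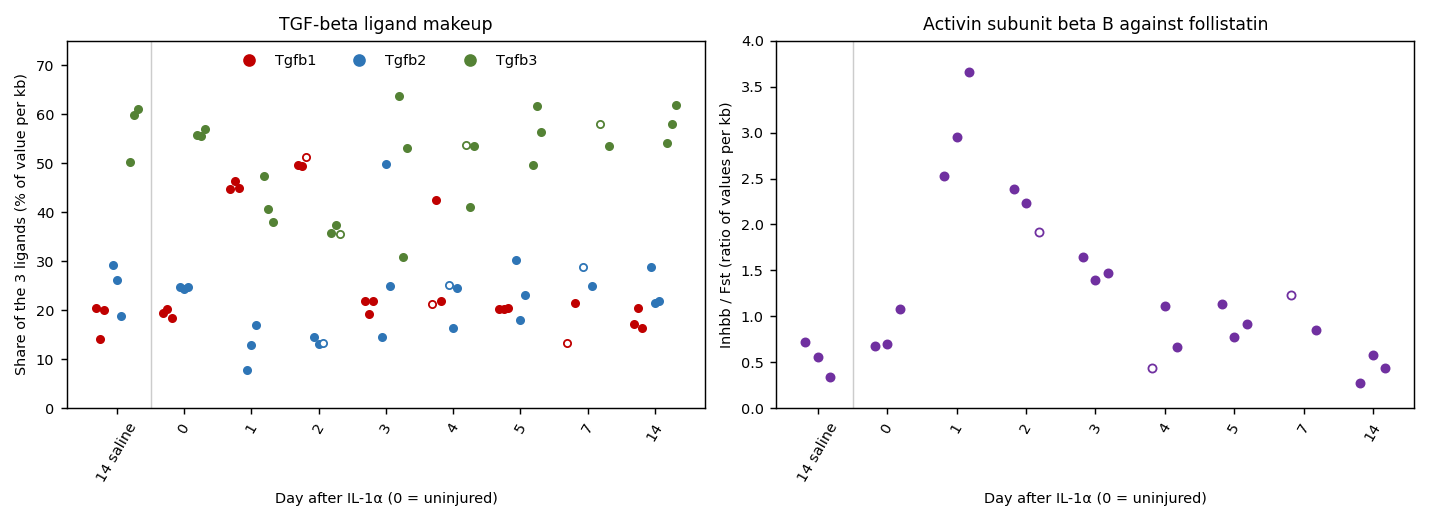
Left, the share of Tgfb1, Tgfb2 and Tgfb3 in their summed value per kb in each library (percent); right, the ratio of Inhbb to Fst, both per kb; open points are libraries left out by the study. Tgfb1 makes up 44.8 to 46.4% at day 1 and 18.4 to 20.2% at day 0, and the ratio lies between 2.53 and 3.66 at day 1 and between 0.674 and 1.08 at day 0.

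The receptors behaved unlike each other. Tgfbr2 encodes the type II receptor, which binds the ligand, and had 501 and 410 at day 4. Day 5 had 524, 394 and 475, against 184, 241 and 196 at day 0. The gene rose 2.20-fold at day 4 (log2 1.13 ± 0.15, adjusted p = 7.95e-05) and 2.23-fold at day 5 (log2 1.16 ± 0.13, adjusted p = 8.74e-06). On days 1 and 2 all libraries were also above day 0, at 281, 296 and 325 and at 396 and 378. There the adjusted p was 0.00214 and 9.19e-05 while the change of 1.46-fold and 1.87-fold stayed under the 2-fold limit. Day 2 replicate 3, which the study left out, had 599, and with all 26 libraries the day 2 change was log2 1.117 (adjusted p = 0.000832) and was called. Without day 0 replicate 2 the change at day 2 was log2 1.02 and was called, and without day 4 replicate 2 that at day 4 was 0.99 and was not.

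At day 3 Tgfbr2 stood at 240, 295 and 266, lower than at day 2 (log2 -0.54 ± 0.15, adjusted p = 0.0157, under 2-fold). Day 4 was in turn higher than day 3 by log2 0.77 ± 0.15 (adjusted p = 0.00697, under 2-fold). By day 14 it was 217, 243 and 280, against 524, 394 and 475 at day 5, a log2 change of -0.91 ± 0.13 (adjusted p = 0.000115). That change passed the 2-fold limit without day 5 replicate 2 (log2 -1.02) or without day 14 replicate 3 (log2 -1.004). In the order of means, days 5 and 4 overlapped at the top and day 2 came next, clear of day 4 and of day 1 but level with the lowest day 5 library (394). Day 2 against day 1 was not called by limma (log2 0.36, 95% interval 0.06 to 0.67, adjusted p = 0.144).

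Tgfbr1 encodes the type I receptor kinase that the ligand-bound type II receptor activates. It had 276, 317 and 267 at day 1 and 302, 275 and 253 at day 5, against 268, 247 and 246 at day 0. Its log2 change against day 0 lay between -0.18 and 0.27 over all 8 comparisons, with no call. At day 1 the 95% interval was -0.08 to 0.42 and at day 5 it was -0.13 to 0.37, which leaves out a change of 2-fold at either day. In the order of group means every pair of neighbours overlapped. With values scaled to library totals Tgfbr1 was called at day 1 (log2 1.35), where the median gene moved by 1.18. At day 0 Tgfbr1 was the more abundant receptor gene per kb, at 38.8, against 25.3 for Tgfbr2. At day 5 Tgfbr1 had 42.3 per kb and Tgfbr2 had 56.7.

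Tgfbi encodes a secreted matrix protein named for its induction by TGF-beta. It moved most of the 8 genes, with 635, 890 and 750 at day 1 and 649 and 596 at day 2, against 82.5, 66.3 and 88.4 at day 0. The gene rose 9.46-fold at day 1 (log2 3.24 ± 0.17, adjusted p = 2.12e-11) and 7.84-fold at day 2 (log2 2.97 ± 0.19, adjusted p = 2.38e-09). At day 3 it stood at 94.8, 101 and 125, a log2 change of -2.54 ± 0.19 against day 2 (adjusted p = 4.52e-08). All 3 day 3 libraries still lay above day 0, without a call (log2 0.43, adjusted p = 0.110). Day 4, with 159 and 170, was called again (log2 1.06 ± 0.19, adjusted p = 0.000849), as was day 5, with 180, 144 and 233 (log2 1.20 ± 0.17, adjusted p = 5.54e-05).

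The later Tgfbi level was well under the early one. Day 5 was lower than day 1 by a log2 change of -2.04 ± 0.17 (adjusted p = 2.46e-08) and than day 2 by -1.77 ± 0.19 (adjusted p = 1.25e-05). Day 14, at 81.7, 92.6 and 84.8, was lower than day 5 by -1.07 ± 0.17 (adjusted p = 0.000242) and overlapped day 0. Without day 0 replicate 2 the day 4 change was 0.94, and with all 26 libraries it was 0.98, both under 2-fold. Without day 5 replicate 3 the change of day 14 against day 5 was -0.89. Tgfbi is itself on the list of known TGF-beta targets. The monocyte and macrophage genes given below summed to 4126 to 5514 at day 1 and 8076 to 8724 at day 2. Their sums were 2907 to 2934 at day 3 and 3175 to 5299.9 at day 5. Their part in the Tgfbi level was not tested.

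**Figure D3:**
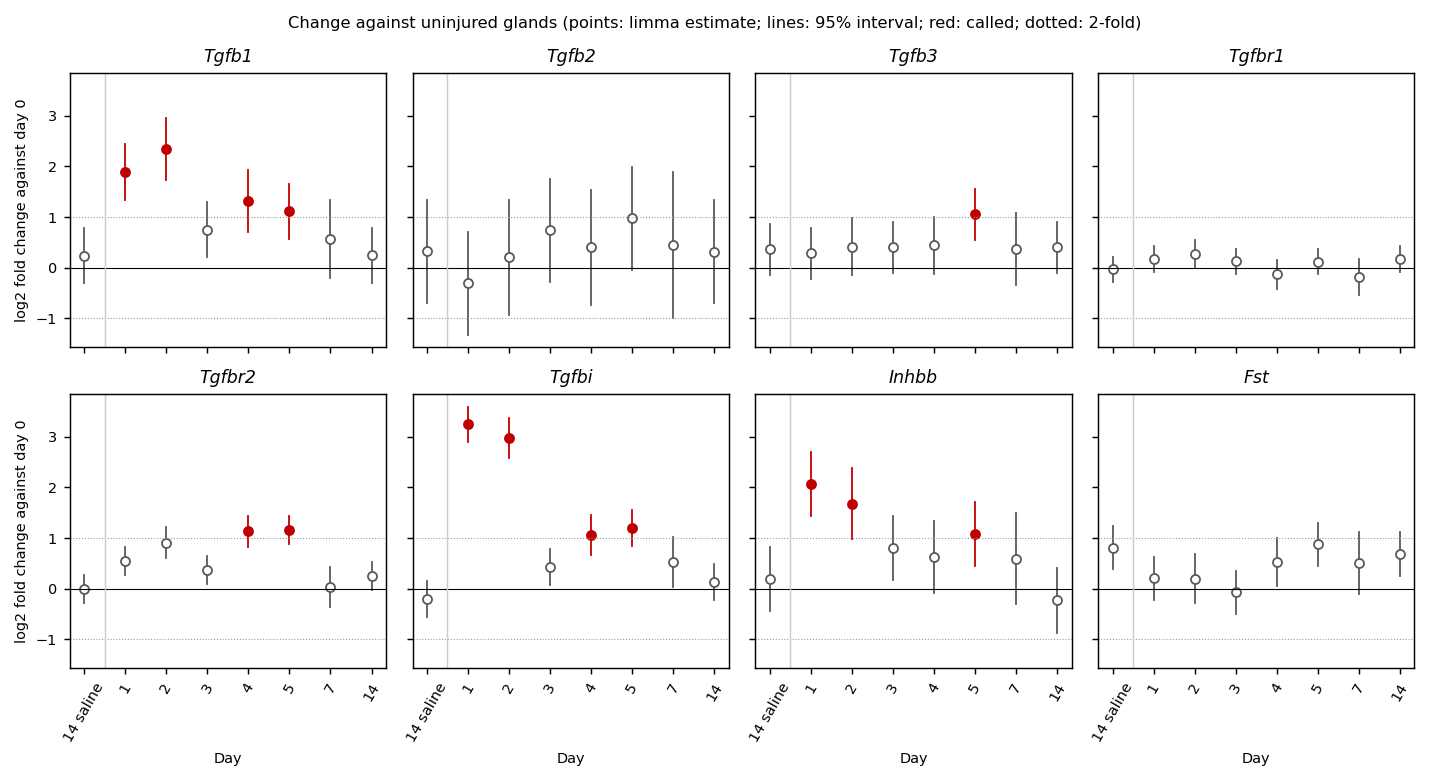
Log2 fold change against day 0 of the 8 genes tested, by day with saline at the left; points are limma estimates, lines 95% intervals, filled red points are called and dotted lines mark 2-fold. Tgfb1, Tgfbi and Inhbb are called at days 1 and 2, Tgfbr2 at days 4 and 5, Tgfb3 at day 5 alone, and nothing at day 3.

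Inhbb encodes the beta B subunit, 2 of which form activin B. Its values were 68.7, 70.1 and 69.95 at day 1 and 58.5 and 48.4 at day 2, against 17.5, 12.6 and 18.2 at day 0. The gene rose 4.17-fold at day 1 (log2 2.06 ± 0.30, adjusted p = 1.28e-05) and 3.21-fold at day 2 (log2 1.68 ± 0.34, adjusted p = 0.000802). Day 1 lay above day 2 and day 2 above day 5 with no overlap of their libraries, while neighbours in the order of means from day 5 down overlapped. Neither of these steps was called by limma. Day 2 against day 1 had log2 -0.38 (95% interval -1.09 to 0.33, adjusted p = 0.581). Day 5 against day 2 had log2 -0.60 (95% interval -1.31 to 0.11, adjusted p = 0.338). Days 3 and 4 were above day 0 in all tested libraries, at 26.9, 24.5 and 34.7 and at 30.1 and 20.8, without a call (adjusted p = 0.104 and 0.215). At day 5 the values were 47.4, 26.5 and 33.5 (log2 1.08 ± 0.30, adjusted p = 0.0116). That call was lost without day 0 replicate 2 (log2 0.92) or day 5 replicate 1 (log2 0.87, adjusted p = 0.0680), and with the saline glands as the control (log2 0.89, adjusted p = 0.0431). Day 14, with 8.03, 18.3 and 16.2, was lower than day 5 (log2 -1.31 ± 0.30, adjusted p = 0.00543), and that change was -0.98 without day 14 replicate 1.

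Inhba encodes the beta A subunit of activin A, an early injury gene in skin. It was listed at 0 in all 3 libraries of day 0, where 3 reads would be worth 3.43 to 5.26. It had 3.18, 2.02 and 0 at day 1 and 2.85 and 1.67 at day 2. Later values were 0.815 and 0.992 on day 4, with 0.803, 0 and 4.30 on day 5. These are 8 estimated reads over the 3 libraries of day 1, 6 over the 2 of day 2, 2 at day 4 and 6 at day 5. Days 3, 7 and 14 had none in the tested libraries and the saline glands had 1. No fold is given, since no value passed the highest of those 3-read levels at day 0, which was 5.26. Every tested library of days 2 and 4 lay above the 0 of day 0, on 6 and 2 estimated reads. Inhba was not tested, and no difference is claimed at this depth. Inha, Inhbc and Inhbe complete the list of subunits, of which 1 could be tested, with no call.

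Fst encodes follistatin, which binds activins and keeps them from their receptors. It had 45.0, 36.8 and 39.5 at day 5, against 28.1, 19.4 and 18.2 at day 0, and all 3 lay above the uninjured glands (log2 0.88 ± 0.21, adjusted p = 0.00360, under the 2-fold limit). It was also above all day 0 libraries at day 14, with 32.1, 34.1 and 39.9 after IL-1α (log2 0.69 ± 0.21, adjusted p = 0.0477) and 38.3, 40.5 and 36.8 after saline (log2 0.81 ± 0.21, adjusted p = 0.0345). The glands at 14 days after IL-1α did not differ detectably from those after saline (log2 -0.13, 95% interval -0.55 to 0.30). Days 1, 2 and 3 overlapped day 0, with log2 changes of 0.20, 0.20 and -0.07, and day 4, with 29.3 and 33.7, did not (log2 0.53, adjusted p = 0.116). The day 5 change was 1.06 and called without day 0 replicate 1. The day 5 libraries overlapped those of the saline glands, whose log2 change against day 0 was 0.81 where that of day 5 was 0.88.

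The ratio of Inhbb to Fst, both per kb, was 3.05 ± 0.57 at day 1 (SD, n = 3) and 2.31 ± 0.11 at day 2 (n = 2), against 0.817 ± 0.227 at day 0 (n = 3). It was 1.503 ± 0.129 at day 3, 0.887 ± 0.313 at day 4 and 0.943 ± 0.181 at day 5. Day 14 had 0.429 ± 0.154 after IL-1α and 0.537 ± 0.192 after saline. All libraries of days 1, 2 and 3 lay above all of day 0, and those of days 4 and 5 overlapped it. With the longest transcripts the ratio was 1.94 at day 1, against 0.520 at day 0. The ratio is a description with no test.

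Grem1 encodes gremlin, an antagonist of bone morphogenetic proteins. It reached no more than 3.74 in any tested library, and day 0 had 1.75, 0 and 2.60, which is 3 estimated reads in all. The tested libraries of day 4, day 7 and the saline group had none. Grem1 was not tested, and no pattern by day can be read at this depth.

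Of the 8 genes tested, 3 were called at day 1, all higher, against 11.3% of all genes called higher there, and 3 at day 2, against 11%. None was called by limma at day 3, against 2.57% of all genes, although 4 had an unadjusted p under 0.05. At day 4 3 were called, against 6.97%, and at day 5 the number was 5, against 9.8%. None was called by limma at day 7, which has 1 tested library and 0.116% of genes called higher, at day 14 (1.27%) or in the saline glands (0.669%), with 1 gene at an unadjusted p under 0.05 in each. No gene was called lower on any day. The 3 called at day 1 were also the 3 called at day 2, Tgfb1, Tgfbi and Inhbb, and those of day 5 were these with Tgfb3 and Tgfbr2. All of these comparisons share the 3 day 0 libraries.

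By rank, 4 of the 8 genes had every day 1 library above every day 0 library, against 26.7% of all genes, and 7 of 8 at day 5, against 21.1%. The exception at day 5 was Tgfbr1. At day 14 it was 2 of 8 after IL-1α, against 11.9%, and 1 of 8 after saline, against 11%. Over the 7 days together 6 of the 8 changed by limma's F test at an adjusted p of at most 0.05, against 50.8% of all genes. Tgfb3 was at the limit (adjusted p = 0.0499), and Tgfb2 (adjusted p = 0.343) and Tgfbr1 (adjusted p = 0.155) did not pass.

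Between injured days, 2 genes were called at day 3 against day 2, Tgfb1 and Tgfbi, both lower, against 6.62% of all genes called in either direction. At day 2 against day 1 limma called none of the 8 (2.65% of all genes), with 1 at an unadjusted p under 0.05, and none at day 4 against day 3 (1.3%), with 3. At day 5 against day 1 Tgfbi was lower and Tgfb2 higher (11% of all genes), at day 5 against day 2 Tgfbi and Tgfb1 were lower (2.86%; Tgfb1 log2 -1.23 ± 0.29, adjusted p = 0.0125), and at day 14 against day 5 Tgfbi and Inhbb were lower (6.55%). The Tgfb1 change of day 5 against day 2 was lost when any of 3 libraries was left out: the adjusted p was 0.157 without day 2 replicate 1, 0.0719 when replicate 2 of that day was dropped, and 0.0606 when it was day 5 replicate 2. For day 14 IL-1α against day 14 saline limma called none of the 8 (0% of all genes), 0 of them had an unadjusted p under 0.05, and the log2 changes of the 8 lay between -0.43 and 0.33.

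The genes whose pattern over the 26 libraries lay closest were found by the smallest root mean square (RMS) difference of log2 values, each gene centred on its own mean. For Tgfb1 these were Sirpa (RMS 0.28), Samhd1 (0.30) and Map7d1 (0.30), where the median gene tested lay at 0.88. For Tgfbi they were Ifitm3 (0.31), Cp (0.33) and Itgam (0.34), with the median gene at 1.28. For Inhbb they were Gsdmd (0.36), Marcksl1 (0.37) and Il13ra1 (0.38), with the median gene at 0.92. Tgfbr2 lay nearest to Lama4 (0.19), Zcchc24 (0.20) and Tbc1d2b (0.20), and Tgfb3 to Wwtr1 (0.25), Gabrp (0.32) and Ebf1 (0.32), with medians of 0.62 and 0.58. These are likenesses over libraries that share day, depth and cell makeup, with no test.

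In whole glands, more cells of a type and more RNA per cell cannot be told apart, so the marker lists are given beside the results. On days 1 and 2 the 8 neutrophil genes summed to 1882 to 2401 and 684 to 866, against 1.75 to 6.50 at day 0. The 12 monocyte and macrophage genes summed to 4126 to 5514 and 8076 to 8724, against 1043 to 1768 at day 0, and 9 and 12 of the 12 were called higher. At day 3 neutrophil genes summed to 53.4 to 76.5 and macrophage genes to 2907 to 2934. The corresponding sums at day 5 were 43.7 to 203 and 3175 to 5299.9. The 5 platelet and megakaryocyte genes summed to 244 to 420 at day 1 and 215 to 264 at day 2, against 81.2 to 104 at day 0. The 6 duct genes summed to 7182 to 10515 at day 1, against 4814 to 5811 at day 0. Retnlg, Ly6g and Mmp8 of the neutrophil list were at 0 in all day 0 libraries, and Camp was at 0 in all 26.

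On days 4 and 5, when Tgfbr2 was called, and on day 5, when Tgfb3 was, the 9 fibroblast genes summed to 15648 to 18917 and 18835 to 27915.5, against 4771 to 5741 at day 0, with 5 of the 9 called higher on each day. On day 1 that sum was 4433 to 5015. Col1a1, Col1a2 and Col3a1 of the fibroblast list are also on the list of known TGF-beta targets, so the sum is not separate from that list. The 7 endothelial genes summed to 626 to 953 at day 5, against 281 to 434 at day 0, and the 6 myoepithelial genes to 1712 to 2056, against 993 to 1427. The part of leukocytes, platelets, ducts, fibroblasts or the other cells in the changes of the 10 genes was not tested.

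**Figure D4:**
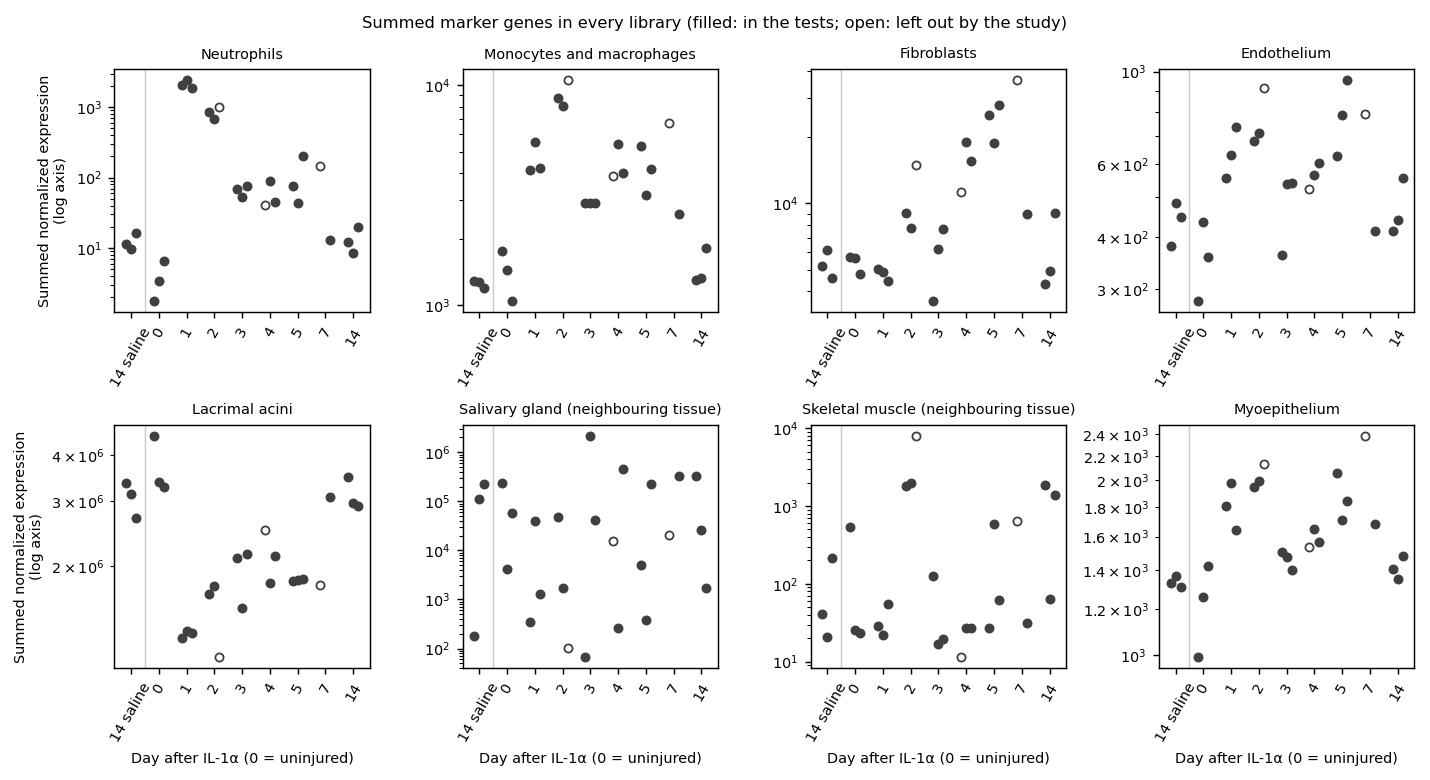
Summed normalized expression of 8 marker lists in each library on log axes, by day with saline at the left; open points are libraries left out by the study. Among the tested libraries neutrophil sums peak at day 1, macrophage sums at day 2 and fibroblast sums at day 5. Acinar sums of the tested libraries are lowest at day 1. The left-out day 7 replicate 1 has the highest fibroblast sum (36160.2) and the left-out day 2 replicate 3 the lowest acinar sum. Salivary sums vary within every group of more than 1 library.

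The other genes of the pathway were taken from 8 lists, whose 102 genes beside the 10 include 76 that could be tested. Against day 0, 18 of the 76 were called higher on day 1 and 5 lower, which is 30.3% of them, where 16.4% of all genes were called in either direction. The number called higher was 18 on day 2 (11% of all genes), 1 on day 3 (2.57%), 17 on day 4 (6.97%) and 27 on day 5, the last being 35.5% of them, where 10.4% of all genes were called. On day 7 limma called none, with 11 at an unadjusted p under 0.05, and at day 14 the 1 call was Ccn2, lower. The median log2 change of the 76 was 0.51 at day 5, where that of all genes was 0.01.

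Among receptors and co-receptors only Eng of 8 tested was called on any of the 7 days, where 23.6% of all genes were called on at least 1. Endoglin is a co-receptor for TGF-beta of endothelial cells, and Eng averaged 115 ± 21 (SD) at day 1, 130 ± 14 at day 2 and 114 ± 20 at day 5, against 52.4 ± 15.9 at day 0 (log2 1.15, 1.34 and 1.14, adjusted p = 0.000517, 0.000662 and 0.00147). The endothelial genes summed to 555 to 736 at day 1 and 683 to 713 at day 2, against 281 to 434 at day 0, and their part in the Eng values was not tested. Of 15 SMADs and intracellular regulators, Pmepa1 alone was called on any of the 7 days, against the same 23.6%. Pmepa1, a TGF-beta-induced inhibitor of SMAD signalling, averaged 69.1 ± 3.8 at day 2 and 89.2 ± 9.3 at day 5, against 28.2 ± 4.9 at day 0 (log2 1.27 and 1.64, adjusted p = 0.000596 and 4.36e-05). The medians of that list lay between -0.01 and 0.10 on days 1, 2, 4 and 5.

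Genes of latency and activation, which hold TGF-beta in store and release it, had 4 of 15 higher and 1 lower at day 1 (11.3% and 5.09% of all genes), 4 higher at day 2 (11%) and 8 higher at day 5 (9.8%). Thbs1, whose product thrombospondin-1 can activate latent TGF-beta, averaged 294 ± 124 at day 1 and 315 ± 40 at day 2, against 40.1 ± 14.5 at day 0 (log2 2.84 and 3.00). Nrros, which tethers latent TGF-beta on macrophages and microglia, averaged 135 ± 29 and 172 ± 34, against 32.4 ± 13.1. Among the matrix genes Fbn2 was called at day 5 alone (33.6 ± 4.1, against 3.21 ± 2.92 at day 0), while Ltbp2 was called on days 1, 2, 3 and 5 and was highest at day 5 (35.6 ± 4.0, against 6.66 ± 5.13 at day 0). The day 0 libraries of Fbn2 ran from 0 to 5.72, where 3 reads were worth 3.43 to 5.26, so the size of its change is uncertain. Furin, the protease that cleaves the pro-forms, was lower at day 1 (log2 -1.09, adjusted p = 4.27e-06).

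Extracellular antagonists had 3 of 8 higher at day 5 (9.8% of all genes) and 3 at day 4 (6.97%). Fstl1, a secreted relative of follistatin, averaged 1139 ± 239 at day 5, against 269 ± 39 at day 0 (log2 2.07), and Bmper and Nbl1 were higher by 1.66 and 1.57 on the log2 scale. At day 1 Fstl3, which binds activin, was higher (log2 1.66, adjusted p = 0.0275), from a low day 0 level of 1.30 to 6.86. Bmper was also higher at day 1 (log2 1.55), and Chrdl1 lower at 3.07 ± 2.19, against 19.2 ± 5.4 at day 0 (log2 -2.45, adjusted p = 2.92e-05). The day 1 libraries of Chrdl1 ran from 0.736 to 5.09, where 3 reads were worth 1.91 to 2.21, so the size of its change is uncertain. Of 8 other ligands of the superfamily, Gdf15 was higher at day 1 (11.3% of all genes), at 140 ± 36, against 20.7 ± 2.4 at day 0. Bmp7, Bmp3 and Gdf5 were lower there (log2 -1.39, -1.38 and -1.18), as were 5.09% of all genes. Bmp3 was low, with 0.736 to 3.82 at day 1, where 3 reads were worth 1.91 to 2.21. At day 5 Bmp1, a protease that processes procollagen rather than a ligand, and Gdf10 were higher (log2 1.65 and 1.55), as were 9.8% of all genes.

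Of 21 known TGF-beta targets, with Tgfbi not counted, 10 were higher on day 1 (11.3% of all genes), 9 on day 2 (11%), 10 on day 4 (6.97%) and 12 on day 5 (9.8%). Timp1, an inhibitor of matrix proteases, averaged 136 ± 34 at day 1, against 1.83 ± 0.73 at day 0 (log2 5.60). Its day 0 values of 1.14 to 2.60 were under those of 3 reads there (3.43 to 5.26), so the size of that fold is uncertain. Cdkn1a, the cell cycle inhibitor p21, averaged 237 ± 45 at day 1, against 15.6 ± 1.6 at day 0 (log2 3.83). Col1a1, the fibrillar collagen chain, averaged 3346 ± 1145 at day 5, against 341 ± 66 at day 0 (log2 3.25), and at day 1 stood at 334 ± 38. Tnc, the matrix protein tenascin C, averaged 253 ± 199 at day 5, against 6.29 ± 7.30 at day 0 (log2 5.57). The day 0 libraries of Tnc ran from 0 to 14.3, so the size of its fold is uncertain too. Ccn2, a direct TGF-beta target, was lower at day 14 in both arms, with 30.3 ± 15.2 after IL-1α and 33.6 ± 13.9 after saline, against 84.4 ± 24 at day 0 (log2 -1.54 and -1.34, adjusted p = 0.00747 and 0.0262). Whether these genes moved through the 10 genes was not tested.

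**Figure D5:**
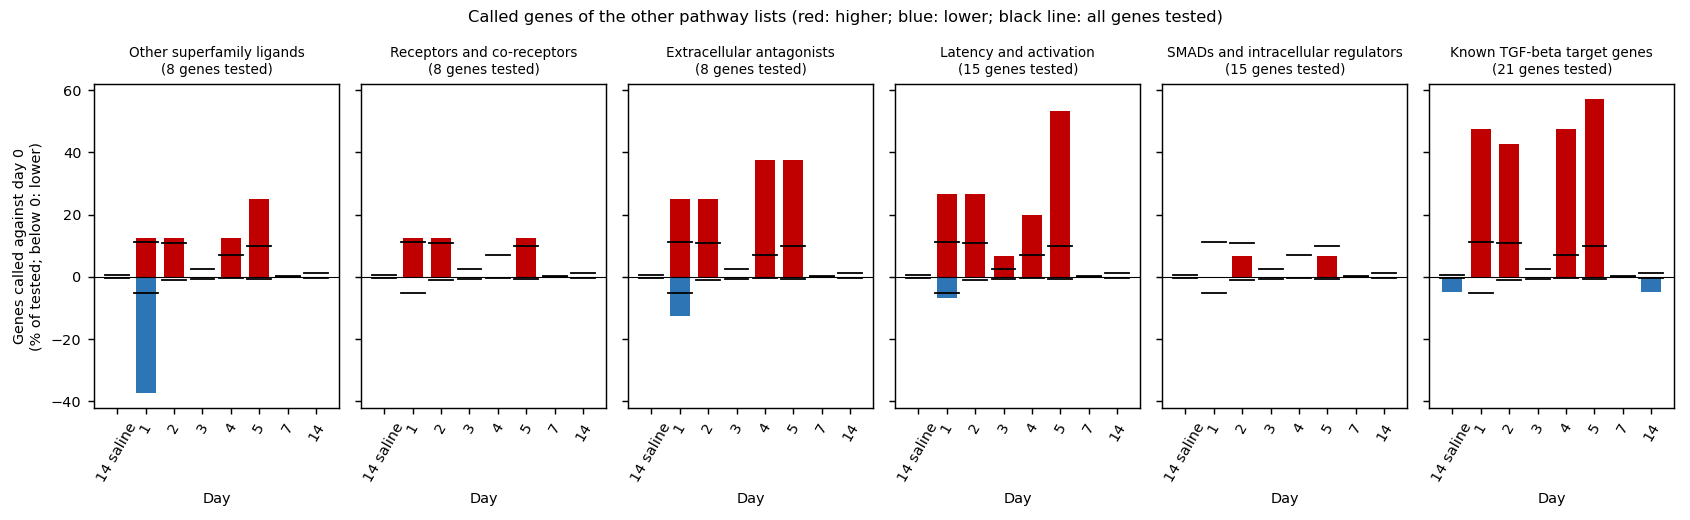
Percent of the tested genes of 6 pathway lists, without the 10 genes, called higher (red, above 0) or lower (blue, below 0) against day 0, by day with saline at the left; black lines give the percent of all genes tested. The SMAD list has at most 1 of 15 called on any day, the target list 9 to 12 of 21 on days 1, 2, 4 and 5, and day 3 is near 0 in every list.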

How the data were processed

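The authors aligned paired reads of mRNA libraries from whole glands with STAR to mm10, estimated counts per gene with RSEM and normalized them with DESeq2. Versions are not given in the sources used here. The deposited signal values are these estimated counts divided by 1 size factor per library. This was tested on the values: among low values, 75.4 to 82.7% were whole multiples (tolerance 0.01) of a step that is fixed for the library, and the step gives the estimated reads and the depth of 9.48 to 13.1 M. Whole reads were not recovered. Intervals cover the spread between libraries, and floors cover counting error only. All columns of values could be mapped to a sample.

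Gene identifiers were named from GENCODE vM21 (GRCm38, the build of the files), which matched 42462 of 43346. The log2(value + 1) of 23 libraries in 9 groups was fitted by limma (version 3.58.1, R 4.3.3) with a variance trend and 14 residual degrees of freedom, and p-values were adjusted by Benjamini-Hochberg over 13762 genes within a comparison. On this scale the change of low genes is understated. For day 7, with 1 tested library, the spread is that of the other groups. Replicates are separate mice. On simulated data with 200 changed genes among 13762, for day 1 against day 0, the fit called 99% of 4-fold and 46% of 2-fold changes. The changed genes were drawn from those with day 0 levels above those of Tgfb1, Tgfb2, Inhbb and Fst. The shares therefore do not cover these low genes. A planted 2-fold change also lies at the limit of the call itself, which holds down the second share.

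Named were the 10 genes, up to 4 called genes of each other pathway list by size of change and those of the opposite direction, the 3 genes nearest in pattern to each called gene, and marker genes beside a result. A gene that this rule names is not reported here. Nbl1 and Col1a1 were picked once their values had been viewed. The genes and lists were chosen with earlier results of these data known. Alternatives were a pseudocount of 0.1, no filter, all 26 libraries, a replicate block, fits of the compared groups alone, scaling to totals, the adjusted p without the fold, no variance trend, the longest transcript, saline glands as the control, and leaving out each library. Leaving out the libraries with Bpifa2 over 100000, and those of day 3, was chosen after seeing the data.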

Additional observations from a re-analysis of the deposited data

Results flagged for a closer look

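Libraries that the study left out of its tests held values beyond every tested library for 6 of the 10 genes. Day 7 replicate 1 had a normalized expression of 147 for Tgfb3, where the highest tested library had 79.5. It had 93.4 for Inhbb, where the highest tested library had 70.1, and 81.7 for Fst, where it had 45.0. Grem1 was at 7.19 there, which is 8 estimated reads, where the highest tested library had 3.74. Tgfbr2 was at 602 in day 7 replicate 1 and at 599 in day 2 replicate 3, where the highest tested library had 524. Tgfb1 was at 104 in day 2 replicate 3, just above the highest tested library at 99.2. The other day 7 library, replicate 3, had 45.2 for Tgfb3, 24.5 for Inhbb, 31.0 for Fst and 210 for Tgfbr2, so that the 2 day 7 animals differed more than 2-fold in each. Fibroblast genes summed to 36160.2 in day 7 replicate 1 and 8921 in replicate 3, and macrophage genes to 6715 and 2597; their part in the difference was not tested.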

How the results depend on the processing

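No change that was called turned its sign under any alternative run. The calls of Tgfb1, Tgfbi and Inhbb at days 1 and 2 held under each of them. Scaling to library totals moved the median gene by log2 1.18, 0.90, 0.69, 0.73 and 0.78 at days 1 to 5, which brought the genes called, of the 8, to 7 on day 1, 7 on day 2, 6 on day 3 and 6 on day 4, with 1 in the saline glands and 6 for day 14 against day 5. Relative to that shift the changes of the 8 genes moved by at most 0.0425 after rounding. At day 5 the scaling to totals added calls of Tgfb2 (log2 1.75) and Fst (log2 1.64). With all 26 libraries 4 genes were called at day 2, Tgfbr2 being added, 1 at day 4, 4 at day 7 (Tgfb3, Tgfbi, Inhbb and Fst) and 1 at day 5 against day 1. With saline glands as the control 2 were called at day 5, Tgfb1, Tgfb3 and Inhbb being lost. On the adjusted p alone 1 was called at day 14, 1 for saline, 1 at day 4 against day 3, 7 at day 5 against day 1 and 4 at day 14 against day 5. In that order 6.92%, 3.9%, 2.35%, 33.2% and 17.4% of all genes passed. Under the other alternatives the share over all genes was not computed, so their counts are no result about the 8 genes. Day 5 against day 1 gave 1 call with a pseudocount of 0.1, with no filter, with the replicate block and with no variance trend, since Tgfb2 was lost each time. Tgfb1 at day 4 had an adjusted p of 0.0655 when only the 2 groups were fitted. Without libraries with Bpifa2 over 100000 there was 1 call at day 14 against day 5, Tgfbi being lost, and Fst was called at day 5 (log2 1.07).

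Leaving out 1 library at a time gave 3 calls on day 1, 3 to 4 on day 2, 1 to 3 on day 4 and 2 to 6 on day 5. It gave 1 to 2 calls for day 5 against day 1, 1 to 2 for day 5 against day 2 and 1 to 4 for day 14 against day 5. Replicate numbers name separate mice: the correlation of same-numbered deviations had a median of 0.000276 over 70 pairs (-0.341 to 0.299), so the numbers do not pair the libraries, and the block changed no call other than Tgfb2. With the longest transcript the Tgfb1 share stayed higher at days 1 and 2 than at day 0. Depth limits Inhba and Grem1, which had 0 to 8 estimated reads per library, and day 7, which had 1 tested library.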
